A study of Drosophila melanogaster with 3 samples.

Results

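The genes described here encode the proteins of the cytoplasmic ribosome of Drosophila melanogaster. They were chosen by name from the Ensembl BDGP6 annotation as the protein-coding genes whose symbol starts with RpL or RpS and a digit, or with RpLP, or is sta. This gave 93 of 13968 protein-coding genes: 50 of the large subunit, 39 of the small subunit and 4 with symbols in RpLP. Chromatin immunoprecipitation and sequencing (ChIP-seq) gave lists of peaks for the ind protein carrying eGFP, pulled down with an antibody against GFP. The 3 samples were biological replicates of 1 group, whole embryos of both sexes aged 0 to 16 hours. All came from 1 transgenic line in which a GFP tag follows the C-terminal end of ind, so there was no comparison between genotypes, treatments or ages. Whole embryos of this age span mix all cell types and stages, and peak lists do not show which cells a peak came from. The lists hold no expression values, so the embryo label could not be set against marker genes.

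Ribosomal protein genes are among the most highly transcribed genes of growing cells, and their products are needed in near equal amounts. In Drosophila most of them start transcription at a polypyrimidine initiator, the TCT motif, which is served by the TBP-related factor Trf2 in place of TBP. The DNA-binding factors M1BP and Dref are known at many of these promoters, and Myc acts on genes of ribosome production. The gene ind, intermediate neuroblasts defective, encodes a homeodomain factor of the intermediate column of the neuroectoderm, from which part of the ventral nerve cord forms.

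The authors' optimal list, drawn from all 3 replicates, held 5809 peaks in dm6. A gene was called bound when the summit of an optimal peak lay in its body or in the 2000 bp upstream, and one peak could count for neighbouring genes. In each replicate the 5809 strongest peaks of its own relaxed list were used in the same way. A relative signal is the authors' peak signal divided by a median: of the whole list for the optimal list, and of the optimal peaks matched within 200 bp for a replicate. Read depth is unknown. Replicate 1 stood apart from replicates 2 and 3 at these genes, so results are given by replicate. All 3 lists were made against 1 control, per the notes deposited with them.

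Ribosomal protein genes were bound more often than genes in general. In the optimal list 66 of the 93 genes (71.0%) were bound, against 34.2% of all protein-coding genes. In replicate 1 it was 75 genes (80.6%), against 34.9% of all genes. In replicate 2 it was 59 (63.4%), against 33.0%, and in replicate 3 it was 59 (63.4%), against 34.6%. The mean over replicates was 69.2% ± 9.93 for ribosomal protein genes and 34.2% ± 0.987 for all genes (SD, n = 3). The ribosomal protein genes thus exceeded all genes in each replicate, with replicate 1 the highest.

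Other rules moved the share of ribosomal protein genes and that of all genes together. Ribosomal protein genes are short, with a median length of 1318 bp against 2164.5 bp for all genes. Of the 10227 protein-coding genes within their range of length, 304 to 4677 bp, 27.1% were bound. A peak within 500 bp of a gene's own annotated start was held by 61 of the 93 (65.6%), against 23.9% of all genes. When each peak was given to the gene with the nearest start alone, 54.8% of ribosomal protein genes had one, against 24.5% of all genes. Counting summits in the gene body alone left 16.1%, close to the 13.8% of all genes, so most of the peaks lay upstream. With the optimal peaks above the median rank 41.9% were bound, against 22.0% of all genes. With only the optimal peaks found in all 3 replicates, 49 (52.7%) were bound, against 27.1% of all genes. In the pooled relaxed list, which also holds weak peaks, 82 (88.2%) had a peak, against 61.0% of all genes. With a −log10 q of at least 2 in that list the share was 81.7%, against 41.4%.

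**Figure D1:**
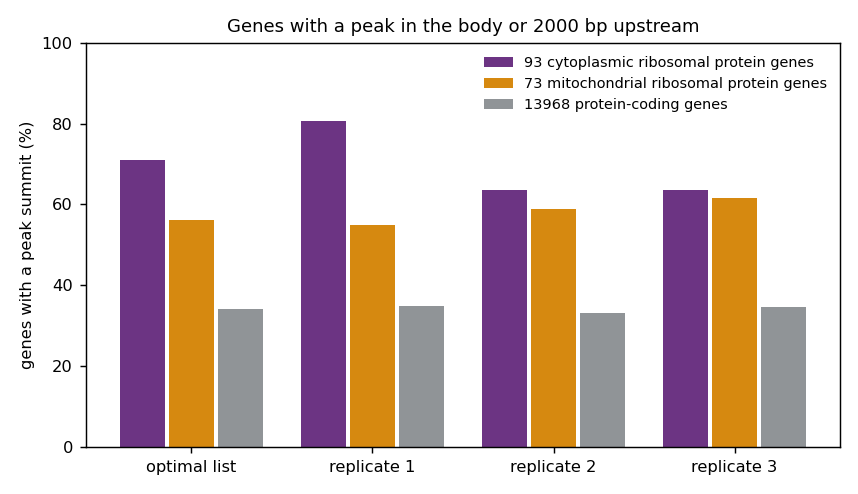
Share of genes (%, vertical axis from 0) with a peak summit in the body or the 2000 bp upstream, in the optimal list and in the 5809 strongest peaks of each replicate. Bars stand for 93 cytoplasmic ribosomal protein genes, 73 mitochondrial ribosomal protein genes and 13968 protein-coding genes. The cytoplasmic bars stand at 71.0%, 80.6%, 63.4% and 63.4%, each above the bars for all genes, and the replicate 1 bar is the highest.

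By subunit, 37 of 50 genes of the large subunit (74.0%) and 25 of 39 of the small subunit (64.1%) were bound in the optimal list. All 4 genes with RpLP symbols were bound. RpLP0, RpLP1 and RpLP2 encode the stalk, the flexible arm of the large subunit that brings in elongation factors. RpLP0-like resembles a yeast assembly factor, and its protein was 18.1% identical to RpLP0. Among each replicate's strongest peaks, all 4 had a peak in replicate 1, while in replicates 2 and 3 RpLP0 and RpLP0-like did and RpLP1 and RpLP2 did not. The mitochondrial ribosomal protein genes, which encode the separate ribosome of that organelle, were bound at 41 of 73 (56.2%).

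The 66 bound genes held 80 distinct peaks, of which 57 (71.3%) were found among the strongest peaks of all 3 replicates, 13 in 2 and 10 in 1. The share found in all 3 was 70.1% over the whole optimal list, so these peaks were found about as often as other optimal peaks. Of the bound genes, 52 held 1 peak and 13 held 2, among them RpS27, RpL34b, RpL28, RpS5a, RpL10Ab, RpLP0-like, RpS12, RpL34a, RpS14b, RpS3 and RpL27A. RpS28b held 3. A start of some gene, coding or not, lay within 500 bp of 78 of the 80 summits (97.5%). The windows used lie at starts and the genes are short, which favours this: over the windows of the 2775 bound genes in the same range of length, it held for 84.8% of 2202 summits.

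The strongest peak of each bound ribosomal protein gene had a median relative signal of 1.23, with a range of 0.550 to 4.58. Over all 4782 bound protein-coding genes the median was 1.30. Where the strongest summit lay within 500 bp of an own start, the median was 1.25 in 60 ribosomal protein genes and 1.34 in 2954 genes. Replicate medians of bound ribosomal protein genes were 1.72, 1.05 and 0.903 in replicates 1, 2 and 3, a mean of 1.22 ± 0.437 (SD, n = 3). Those of all bound genes were 1.22, 1.26 and 1.30. Ribosomal protein genes were thus above all bound genes in replicate 1 and below them in replicates 2 and 3. The ranking of the genes was closest between replicates 2 and 3, with a Spearman rho of 0.887 over 62 genes. It was 0.626 between replicates 1 and 2 (62 genes) and 0.571 between replicates 1 and 3 (65 genes). These coefficients describe genes that share 3 libraries and 1 control, and genes are not replicates.

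The strongest peak lay beside RpL32, a large-subunit gene often used as a reference in expression studies (FBgn0002626, peak at chr3R:30046092-30046557 in dm6). Its relative signal was 4.41, 4.09 and 4.88 in replicates 1, 2 and 3, a mean of 4.46 ± 0.397 (SD, n = 3). All 3 replicates placed it high, although the summit was nearer to the start of CG7943, at -122 bp, than to that of RpL32, at -187 bp. Negative distances are upstream. The small-subunit gene RpS27 came next (FBgn0039300, chr3R:25247371-25247679), with its summit 15 bp upstream of its own start. Its relative signal was 5.35, 3.57 and 3.30, a mean of 4.07 ± 1.12 (SD, n = 3). RpL34b (chr3R:9401148-9401564) had 3.46, 3.85 and 3.77, a mean of 3.69 ± 0.204 (SD, n = 3), with the summit at -82 bp. RpS27 was thus highest in replicate 1, while RpL34b was about level in all 3.

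RpS20 (chr3R:20821825-20822188) had a relative signal of 3.67, 3.18 and 3.82 in replicates 1, 2 and 3. Its summit lay at -156 bp from the start of CG17271, the nearest, and at -177 bp from its own. RpL7 (chr2L:10200889-10201170) had 5.14, 3.09 and 2.78, with its summit 41 bp inside the gene. RpL23A (chr3L:1668609-1668887) had 4.23, 2.68 and 2.24, at -93 bp. RpL7 and RpL23A, whose own start was the nearest to the summit, were highest in replicate 1, and RpS20 was not. The strongest 10 also held RpS28b, RpL41 and RpL14, with relative signals of 2.28, 2.18 and 2.08 in the optimal list.

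At the weak end stood RpS26, RpLP2, RpL15, sta and RpL39, with relative signals of 0.593, 0.589, 0.564, 0.554 and 0.550 in the optimal list. The gene sta, stubarista, encodes the small-subunit protein SA, related to the laminin receptor. Its peak (chrX:1483095-1483494) had a relative signal of 1.65, 0.296 and 0.198 in replicates 1, 2 and 3, with the summit 3 bp upstream of an annotated start. RpL39 had 0.411, 0.538 and 0.610, with the nearest start that of Rap2l. So sta was above the median in replicate 1 and far below it in replicates 2 and 3, while RpL39 was low in all 3.

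**Figure D2:**
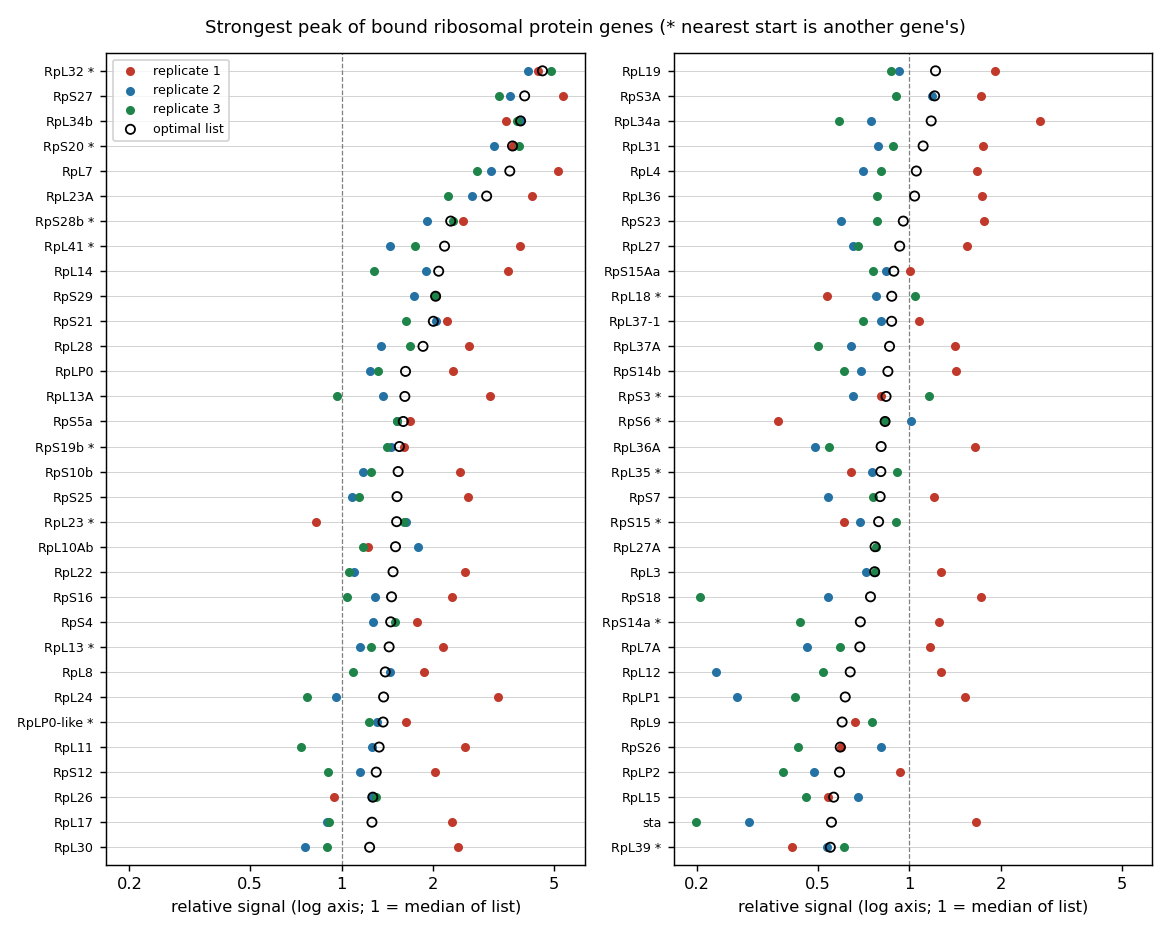
Relative signal (log axis; 1 is the median of the list) of the strongest peak of bound ribosomal protein genes (64 of the 66), ordered by the optimal list from RpL32 (4.58) to RpL39 (0.550). Filled points are replicates 1 (red), 2 (blue) and 3 (green), open circles are the optimal list, and an asterisk marks genes whose summit is nearer to another gene's start. Red points lie right of blue and green in most rows without an asterisk.

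Summits sat very close to the starts of ribosomal protein genes. The strongest summit was within 500 bp of the gene's own annotated start in 60 of the 66 bound genes (90.9%), against 61.8% of all bound genes and 73.4% of the 2775 bound genes in their range of length. It was within 100 bp in 46 genes and within 50 bp in 28. Among the 60, the median position was -56 bp, whereas over the 2954 protein-coding genes with such a summit it was -137 bp, and -121.5 bp over the 2038 of these in the same range of length. The 100 bp just upstream of the start held 61.7% of these summits of ribosomal protein genes, 26.3% of those of all genes and 30.8% of those in the same range of length. Of the 60 summits 51 lay upstream and 9 downstream of the start.

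**Figure D3:**
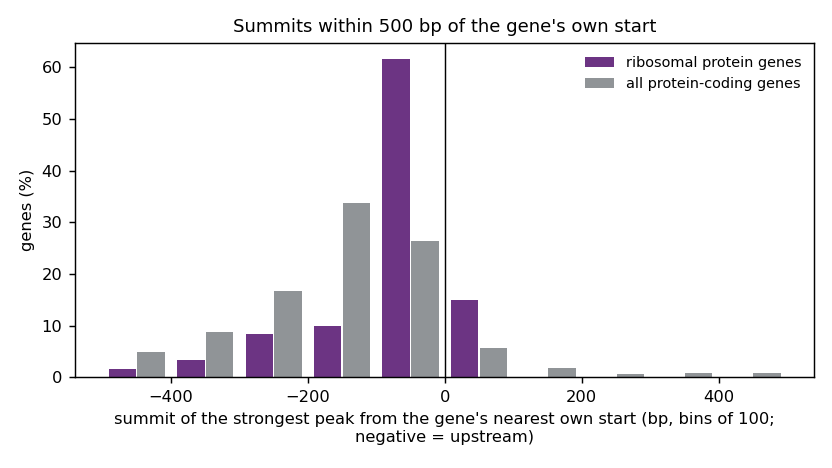
Distance in bp from the gene's nearest own start to the summit of its strongest optimal peak (bins of 100 bp, negative is upstream), as a share (%) of 60 ribosomal protein genes and of 2954 protein-coding genes with a summit within 500 bp. The tallest bar of the ribosomal protein genes, 61.7%, is the bin from -100 to 0 bp, and that of all genes, 33.6%, is the bin from -200 to -100 bp.

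Not every bound gene had a peak that was nearest to itself. In 50 of the 66 the strongest summit was nearest to the gene's own start and in 16 to the start of another gene. Among the 16, each with the gene whose start was nearest, were RpL32 (CG7943), RpS20 (CG17271), RpS28b (l(1)G0320), RpL41 (NaCP60E), RpS19b (CG5854), RpL23 (CG13531), RpL13 (Dref), RpLP0-like (14-3-3zeta), RpL18 (Neos), RpS3 (Sec13), RpS6 (bys), RpL35 (Rab18), RpS15 (CG4927), RpS14a (Dhdds) and RpL39 (Rap2l). RpS28b also had a peak at its own start, at -28 bp, with a relative signal of 1.34. Among these neighbours are Dref and bys. Dref encodes a factor that binds the DNA replication-related element of many housekeeping promoters, and bystin, the product of bys, acts in small-subunit assembly. The peak between RpL13 and Dref (chr2L:9966995-9967394) had a relative signal of 2.15, 1.15 and 1.24 in replicates 1, 2 and 3. The peak between RpS6 and bys (chrX:7901738-7901882) had 0.370, 1.01 and 0.829. The peak by RpS6, which encodes a small-subunit protein that S6 kinase phosphorylates, was thus lowest in replicate 1. The peak by RpL13 was highest there. In replicate 1 the strongest peak in the RpS6 window was another one, at -27 bp from its own start, with 0.617.

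Replicate 1 gave higher relative signals than the others at the starts of most bound ribosomal protein genes. For each peak its relative signal in replicate 1 was divided by the mean of those in replicates 2 and 3. Over 5603 optimal peaks matched in all 3 lists the median of this ratio was 0.929. At the 47 bound genes whose own start was nearest and whose peak was matched in all 3, the median was 2.02, with a range of 0.738 to 6.70. At the 15 such genes where another start was nearest the median was 0.984, with a range of 0.402 to 2.43. The ratio follows the strongest optimal peak, which at these genes lay nearer to the neighbour's start. At RpL18, RpL35, RpL39 and RpS6 the strongest replicate 1 peak in the window was another one, close to the own start. The ratio was above 1.5 in 35 of the 47 (74.5%) and in 2 of the 15 (13.3%), against 7.92% of all optimal peaks and 10.3% of those within 500 bp of a start.

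The ratio of 6.70 at sta was the highest of all 5603 optimal peaks. It was 4.61 at RpS18, 4.40 at RpLP1, 4.02 at RpL34a and 3.79 at RpL24. RpS18 had a relative signal of 1.72, 0.541 and 0.206 in replicates 1, 2 and 3, and RpLP1 had 1.52, 0.271 and 0.422. Each of these genes was above the list median in replicate 1 and below it in replicates 2 and 3. Some of these ratios divide by weak relaxed peaks. The peak at sta was among the strongest of replicate 1 alone. Its matches had a −log10 q of 0.436 and 0.209 in replicates 2 and 3. The −log10 q was 2.48 and 0.254 for RpS18 in these replicates, and 0.304 and 2.58 for RpLP1. At 14 peaks nearest to the start of a mitochondrial ribosomal protein gene the median ratio was 0.799, and at 0 of them was it above 1.5. The lists give no library depth, age structure or quality measure for a replicate, so what sets replicate 1 apart was not tested. Without replicate 1, 52 genes (55.9%) held an optimal peak found in both other replicates, against 30.1% of all genes. Without replicate 2 the share was 57.0%, against 29.0%, and without replicate 3 it was 55.9%, against 27.8%.

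**Figure D4:**
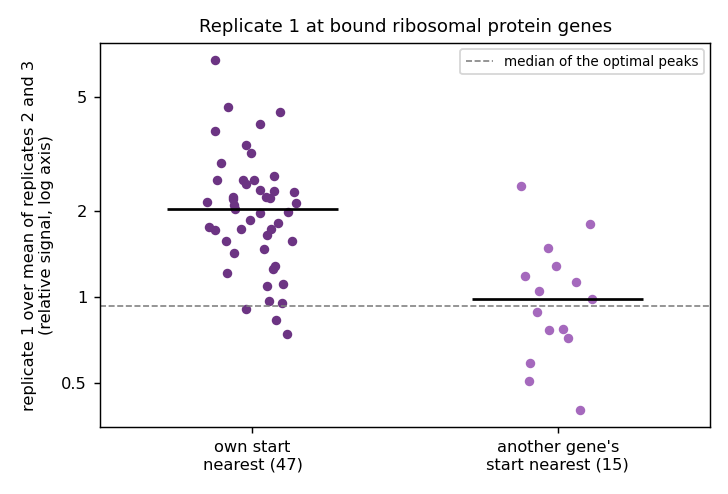
Relative signal in replicate 1 over the mean of replicates 2 and 3 (log axis) at the strongest peak of bound ribosomal protein genes, 47 with their own start nearest and 15 with another gene's start nearest. Each point is a gene, black bars are medians (2.02 and 0.984), and the dashed line is the median of the optimal peaks (0.929).

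The unbound genes numbered 27. Among them were RpL5, RpL6, RpL7-like, RpL10, RpL10Aa, RpL21, RpL22-like, RpL24-like, RpL29, RpL35A, RpL37-2, RpL38 and RpL40 of the large subunit. Those of the small subunit included RpS2, RpS5b, RpS9, RpS10a, RpS13, RpS15Ab, RpS19a, RpS24, RpS27A, RpS28-like, RpS28a and RpS30. Most had a weak peak below the optimal list's limit. In the pooled relaxed list 16 of the 27 had a peak, with a relative signal of 0.194 to 0.523 and a median of 0.398. Of all 13968 protein-coding genes, bound or not, 8525 (61.0%) had a peak in that list. The 61.0% takes in the 4782 bound genes, so it is not a like measure for the 27. The share among all unbound genes was not counted, so weak peaks can be called neither particular to these 27 nor as frequent elsewhere. The lowest optimal peak stood at 0.541. RpS13 (0.523), RpS19a (0.512), RpS30 (0.512) and RpL35A (0.504) were among those just outside, and RpL39 (0.550) and sta (0.554) just inside. The pooled peak of RpS13 lay at -1267 bp from its own start. Those of RpS19a, RpS30 and RpL35A lay at -29, 28 and -7 bp. RpL10Aa was the single gene with no peak in any list used.

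More unbound genes had a peak in replicate 1 than in the others. Among its 5809 strongest peaks, 11 of the 27 unbound genes had a summit: RpL10, RpL29, RpL35A, RpL6, RpS13, RpS19a, RpS2, RpS27A, RpS28a, RpS30 and RpS9. In replicate 2 it was RpL10 and RpL21 alone, and in replicate 3 RpS13 and RpS27A alone. The replicate 2 peak of RpL21 lay at -1785 bp and the replicate 3 peak of RpS13 at -1275 bp from their own starts. Of all protein-coding genes, bound or not, 34.9%, 33.0% and 34.6% had such a peak in replicates 1, 2 and 3. These shares take in bound genes, so they are not a like measure for the 27. The share among all unbound genes was not counted. RpS27A and RpL40 encode ubiquitin fused to a ribosomal protein. RpS27A had a relative signal of 1.12 in replicate 1 and 0.618 in replicate 3, with no peak in replicate 2. RpL40 had 0.311, 0.351 and 0.274 in replicates 1, 2 and 3, low in all.

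Bound and unbound genes differed in their surroundings. Another gene's start lay within 1000 bp of 57 of the 66 bound genes (86.4%) and of 14 of the 27 unbound ones (51.9%), against 49.3% of all genes and 62.9% of all bound genes. Among the 50 bound genes whose own start was nearest to the summit, the share was 84.0%. This does not take out the peaks of neighbours, since 42% of these 50 genes had a divergent start within 500 bp. A divergent start within 500 bp was found at 45.5% of bound and 29.6% of unbound genes, against 28.7% of all genes and 41.5% of all bound genes. On this measure bound ribosomal protein genes were thus near bound genes in general, and unbound ones near all genes. The median length was 1403.5 bp for bound and 1071 bp for unbound genes, 2164.5 bp for all genes and 3610.5 bp for all bound genes. A single exon was annotated for 1 of the 66 bound (1.52%) and 5 of the 27 unbound genes (18.5%), against 15.3% of all genes and 7.11% of all bound genes. The bound share of single-exon ribosomal protein genes, 1 of 6 (16.7%), was close to that of all single-exon genes (16.0%), while genes with more exons were bound at 74.7%, against 37.5% of all such genes. The sequence within 250 bp of the start was 59.3% A and T at the median in bound genes and 62.5% in unbound genes, against 58.7% in all genes and 59.1% in all bound genes.

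Duplicated genes were mostly bound at one copy and not at the other. Grouping members whose symbols differ only by a final a or b, by a number after a hyphen, or by -like gave 13 groups with 27 copies. In 10 groups only part of the copies were bound, in 3 (RpL34, RpLP0 and RpS14) all were, and in 0 groups was none. Of the 27 copies 16 were bound (59.3%), against 34.2% of all genes. With such a share some groups are split in any case, and whether 10 is more than that was not tested. The 11 unbound copies were RpL10Aa, RpL22-like, RpL24-like, RpL37-2, RpL7-like, RpS10a, RpS15Ab, RpS19a, RpS28a, RpS28-like and RpS5b. RpL10Aa, RpL37-2, RpS10a, RpS15Ab and RpS28a each had a single annotated exon. The bound partners of these 5, RpL10Ab, RpL37-1, RpS10b, RpS15Aa and RpS28b, each had more than one. Of all single-exon genes 16.0% were bound. RpL24-like and RpL7-like resemble yeast assembly factors more than ribosomal proteins by background knowledge, and their proteins were 27.8% and 32.7% identical to RpL24 and RpL7. Among genes with no grouped copy 50 of 66 (75.8%) were bound.

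The sequences around the starts of copies are shown to compare a bound copy with its partner. Each runs from 100 bp before to 10 bp after the annotated start of most transcripts, in dm6 coordinates, read from the reference genome along the gene's strand. Capitals mark TATCGATA, the DNA replication-related element (DRE). They also mark the first CTTTT or CTTTC within 10 bp of the start, the core of the TCT initiator.
RpL10Ab (chr3L:11822751-11822861, plus strand): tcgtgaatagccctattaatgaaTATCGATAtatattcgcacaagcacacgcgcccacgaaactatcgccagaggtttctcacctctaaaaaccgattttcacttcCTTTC
RpL10Aa (chr3R:15037266-15037376, plus strand): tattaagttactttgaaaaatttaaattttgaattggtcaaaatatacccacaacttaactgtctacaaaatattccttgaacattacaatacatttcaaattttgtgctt
RpS10b (chrX:19597940-19598050, plus strand): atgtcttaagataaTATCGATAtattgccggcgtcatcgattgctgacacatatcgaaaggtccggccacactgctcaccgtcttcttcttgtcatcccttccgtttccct
RpS10a (chr3R:27652660-27652770, plus strand): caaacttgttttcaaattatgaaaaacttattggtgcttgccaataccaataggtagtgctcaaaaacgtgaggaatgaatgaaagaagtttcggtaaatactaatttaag
RpS5a (chrX:17148254-17148364, minus strand): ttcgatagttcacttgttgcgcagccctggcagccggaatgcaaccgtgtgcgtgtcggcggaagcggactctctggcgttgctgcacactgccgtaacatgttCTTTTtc
RpS5b (chr3R:14901553-14901663, minus strand): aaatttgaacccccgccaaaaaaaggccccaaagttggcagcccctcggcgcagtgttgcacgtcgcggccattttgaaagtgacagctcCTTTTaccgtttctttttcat
RpS14b (chrX:7934798-7934908, plus strand): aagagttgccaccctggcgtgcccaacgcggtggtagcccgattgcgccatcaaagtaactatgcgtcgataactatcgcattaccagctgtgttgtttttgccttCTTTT
RpS14a (chrX:7933642-7933752, plus strand): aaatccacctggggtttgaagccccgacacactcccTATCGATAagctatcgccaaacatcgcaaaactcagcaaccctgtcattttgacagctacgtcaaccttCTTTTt
RpL34b (chr3R:9401216-9401326, minus strand): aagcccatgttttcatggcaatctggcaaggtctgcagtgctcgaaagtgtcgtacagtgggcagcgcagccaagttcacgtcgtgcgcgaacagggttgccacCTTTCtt
RpL34a (chr3R:26059257-26059367, minus strand): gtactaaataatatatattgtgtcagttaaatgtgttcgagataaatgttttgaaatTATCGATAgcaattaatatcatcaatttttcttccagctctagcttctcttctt
RpS19b (chr3R:23933520-23933630, minus strand): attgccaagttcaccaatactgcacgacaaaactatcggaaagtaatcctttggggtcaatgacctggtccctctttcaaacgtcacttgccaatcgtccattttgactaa
RpS19a (chrX:16637794-16637904, plus strand): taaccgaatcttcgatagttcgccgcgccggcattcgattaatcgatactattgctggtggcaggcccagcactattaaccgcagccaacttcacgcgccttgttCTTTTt

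In the first 2 pairs the bound copies, RpL10Ab and RpS10b, hold the DRE in these bases and the unbound copies, RpL10Aa and RpS10a, hold neither set of letters. Other groups went the other way: within 250 bp of the start the unbound RpL24-like and RpL7-like held the DRE and the bound RpL24 and RpL7 did not, and RpS15Aa and RpS15Ab both held it. RpL10Ab had a relative signal of 1.22, 1.78 and 1.17 in replicates 1, 2 and 3, against no peak for RpL10Aa, whose protein was 63.6% identical. RpS10b had 2.44, 1.17 and 1.24, against 0.391, 0.391 and 0.475 for RpS10a. Both bound copies stood above both partners in each replicate. The optimal list that set bound from unbound was drawn from these same replicates, so this order was largely given by the rule. RpS5a had 1.68, 1.52 and 1.52, against 0.260 and 0.201 for RpS5b in replicates 1 and 3 and no peak in replicate 2. RpS5b, known for its use in the female germ line, holds CTTTT at the edge of the window searched. Another copy, left in lower case, lies just after its start, and RpS5a likewise holds CTTTT just after the start.

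RpS14a and RpS14b lie in tandem on the X and encode the same protein, 100% identical over 151 residues. The peak at RpS14b (chrX:7934649-7935048) had a relative signal of 1.43, 0.695 and 0.609 in replicates 1, 2 and 3. The peak upstream of RpS14a (chrX:7933334-7933733) had 1.25 and 0.438 in replicates 1 and 3, with no match in replicate 2, where the strongest relaxed peak elsewhere in the window had 0.224. It also fell in the window of RpS14b, the 1 peak shared by 2 of the genes. Reads from near-identical stretches may not be placed with certainty, and the sources used here do not say how the authors placed them. The identity given is of protein. That of the bases under the peaks was not measured, and the start sequences of RpS14a and RpS14b shown above differ. RpS15Aa, bound with 1.00, 0.841 and 0.761, and the unbound RpS15Ab were 97.7% identical in protein, and the same limit applies.

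RpL34b was strong in all replicates, as given above, and its partner RpL34a had 2.68, 0.748 and 0.587, high in replicate 1 alone. RpS19 went against the pattern of the other groups. The peak counted for RpS19b (chr3R:23934337-23934518) lay at -880 bp from its start and nearest to that of CG5854, with 1.60, 1.45 and 1.40. RpS19a held a weaker peak at its own start, at -29 bp in the pooled relaxed list (0.512) and at -25 bp in replicate 1 (1.19). Its strongest peaks in replicates 2 and 3, 0.475 and 0.442, lay at -129 and -495 bp. By peaks at the own start, then, RpS19a had a sub-threshold peak and RpS19b had none in the optimal list.

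**Figure D5:**
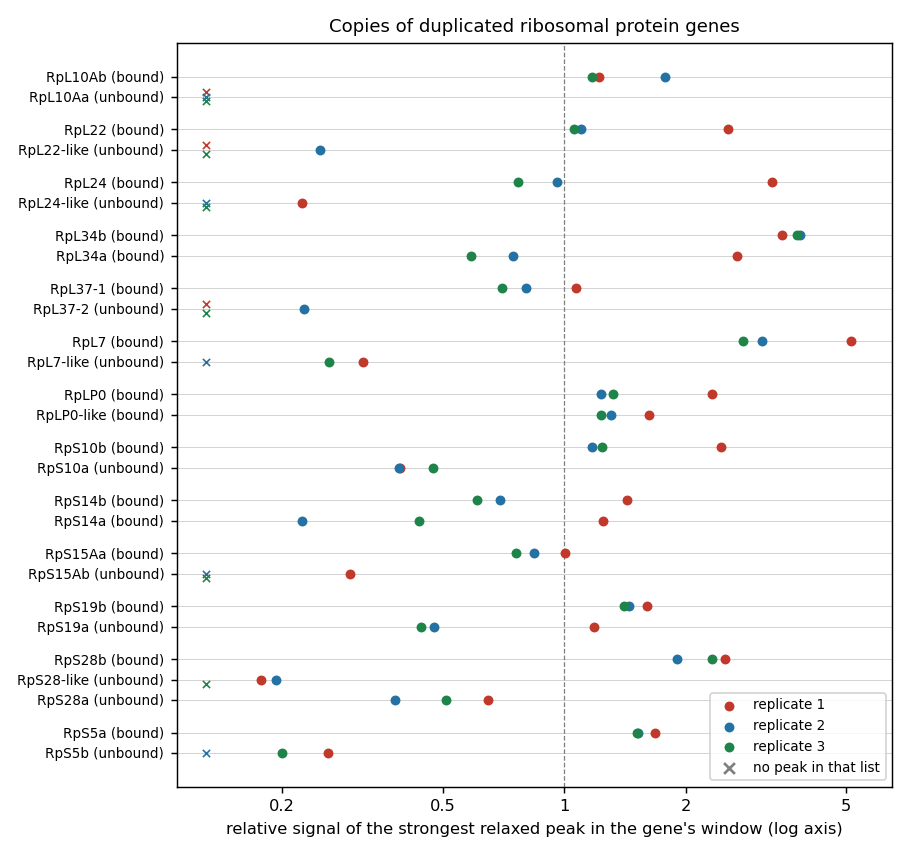
Relative signal (log axis; 1 is the median) of the strongest relaxed peak in the window of each copy of 13 groups of duplicated ribosomal protein genes. Points are replicates 1 (red), 2 (blue) and 3 (green), and crosses at the left edge mark a replicate with no peak. RpL10Ab stands at 1.22, 1.78 and 1.17, and RpL10Aa has 3 crosses.

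Most of the promoter letters sought set ribosomal protein genes apart from all genes more than they set bound from unbound ones, with exceptions given below. Each motif was sought on both strands within 250 bp of the start of most transcripts, unless said otherwise. The DRE, TATCGATA, which Dref binds, was in 21 of 66 bound (31.8%) and 7 of 27 unbound genes (25.9%), against 9.69% of all genes. GGTCACAC, the core of Motif 1, which M1BP binds, was in 16.7% of bound and 14.8% of unbound genes, against 8.38% of all genes. The TCT core CTTTT, on the coding strand within 10 bp of the start, was in 28.8% of bound and 25.9% of unbound genes, against 3.14% of all genes. With CTTTC allowed as well, it was in 57.6% and 48.1%, against 5.42% of all genes and 4.11% of mitochondrial ribosomal protein genes.

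CACGTG, the E-box that Myc and Max bind, was in 36.4% of bound and 40.7% of unbound genes, against 7.02% of all genes. It lay almost wholly on one side of the start. In the 250 bp after the start 34.4% of the 93 genes held it, against 4.25% of all genes. In the 250 bp before the start 3.23% of them did, against 2.83% of all genes. The DRE had the opposite place, before the start in 26.9% of the 93 genes and after it in 3.23%, a lean also seen in all genes (7.88% and 1.64%). GAGAGA, the GAGA factor's letters, was in 7.58% of bound and 7.41% of unbound genes, less often than in all genes (17.6%). TAATTA, a core that many homeodomain proteins bind, was in 28.8% of bound and 29.6% of unbound genes, against 27.0% of all genes.

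Letters were also sought around the summits. Within 100 bp of the summit the DRE was in 19 of the 80 peaks at ribosomal protein genes (23.8%), against 7.54% of the 2824 optimal peaks within 500 bp of a start. TAATTA was in 11.3%, against 18.4% of those peaks. A and T made up 60.0% of this sequence at the median, against 65.2%. A match is a description of letters and says nothing of whether a factor was there.

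Other genes of the translation machinery were counted in the same way, with 34.2% of all genes bound. Of 7 elongation factor genes 5 were bound (71.4%), eEF1delta, eEF2, eEF1alpha1, eEF5 and eEF1gamma. The summits of eEF1delta and eEF1alpha1 were nearest to the starts of ova and ERp60. eEF1gamma had a relative signal of 3.05, 1.31 and 1.59 in replicates 1, 2 and 3, with its summit at -42 bp. Of 16 matched ribosome assembly genes 11 were bound (68.8%), among them bys by the peak also counted for RpS6. The strongest was eIF6, which keeps the subunits apart until the large one is mature, with 7.94, 12.4 and 13.0 and its nearest start that of an antisense RNA. eEF1gamma was thus highest in replicate 1, and eIF6 was lowest there. All 5 genes listed as regulators were bound, Trf2, M1BP, Dref, Myc and Max, with the summits of Trf2 and Max nearest to the starts of PIG-T and CG42374. In replicate 3 it was 4 of the 5. The peak of Dref is the one also counted for RpL13. That of Trf2 was weak, at 0.584 in the optimal list, and lay at -1952 bp from its own start. M1BP had the strongest of these peaks, with 2.74, 3.68 and 3.12, nearest to the start of CG8202, and that of Myc lay 8760 bp downstream of its nearest annotated start.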

How the data were processed

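Peaks came from 3 biological replicates of ChIP-seq in whole embryos. From each replicate and 1 control the authors called a relaxed peak list, then a list from pooled reads, and took the optimal list by irreproducible discovery rate, per the deposited notes. Aligner and peak caller were not given in the sources used here. Each peak's signal is the authors' own value as deposited. The q-value is deposited on the −log10 scale and was at 4.08 in all 5809 optimal peaks, so it ranked nothing. Fragmentation was by sonication, and the labels give sizes of 200 to 800.

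Positions are 1-based in dm6, joined to the Ensembl BDGP6 annotation and to the RefSeq reference sequence of the same assembly. A peak was taken as its summit and matched between lists within 200 bp. Symbols in the lists of other genes were matched to the annotation, and Bop1 was not matched. Members, lists and motifs were chosen with earlier results of these data known, so no test was run over them, and values are counts, shares, medians and, over replicates, means with SD. The genes named were the strongest 10, the weakest 5, all copies, all unbound genes, and those with several peaks or a neighbour's start nearest. Some of these genes are counted but not reported here by name. Other genes named for their ratio of replicate 1 to the others were chosen after seeing the data. The windows and matching were tested on simulated data. Protein identity came from translated coding sequence, aligned with Biopython 1.88. Analyses used Python 3.11.15, numpy 2.4.6 and pandas 2.3.3. The dm3 lists were not used here. Alternatives covered the window, the list, the match, leaving out each replicate, and motif windows.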

Additional observations from a re-analysis of the deposited data

How the results depend on the processing

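The share of bound ribosomal protein genes, 71.0%, moved with the definition, as did that of all genes, given in brackets. It was 16.1% for the gene body alone (13.8%), 54.8% with each peak given to the nearest start (24.5%), 41.9% for the optimal peaks above the median rank (22.0%), 52.7% for peaks found in all 3 replicates (27.1%) and 81.7% in the pooled list with a −log10 q of at least 2 (41.4%). With each replicate left out in turn, and peaks required in both others, it was 55.9% to 57.0% (27.8% to 30.1%). With intervals overlapping by 50% of both, 33 peaks were found in all 3 replicates, against 57. A summit at the own start was seen in 81.8% of bound genes within 250 bp and 98.5% within 1000 bp, against 90.9%. Motif 1 was in 7 bound genes within 100 bp of the start, against 11. With CTTTC allowed, an alternative chosen after seeing the data, the TCT core was in 38 bound and 13 unbound genes, against 19 and 7. Without each replicate in turn, the mean share ran from 63.4% to 72.0%, the median relative signal from 0.975 to 1.38, and the part-bound paralogue groups numbered 11 each time, against 10. Depth is unknown, so no limit of detection can be given for an unbound gene.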

Other observations

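By chromosome arm, 14 of 15 ribosomal protein genes were bound on the X (93.3%), against 37.5% of all genes there. The count was 11 of 14 on 3L (34.6% of all genes), 15 of 23 on 3R (36.1%), 14 of 21 on 2R (30.8%) and 11 of 19 on 2L (33.0%). The 1 gene on chromosome 4, RpS3A, was bound with a relative signal of 1.72, 1.19 and 0.901 in replicates 1, 2 and 3. Among the unbound genes RpL5 and RpL21 lie 0.977 and 1.27 Mb from the centromere end of 2L in the assembly.

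All 2080 words of 6 letters, taken with their reverse complements, were ranked in the 100 bp before the start by the share of ribosomal protein genes minus the share of all genes, a ranking added after seeing the data and given with no test. TATCGA, part of the DRE, led with 40.9%, against 17.3% of all genes. Of the words near the top, AACTAT differed most between bound and unbound genes, at 18 of 66 (27.3%) and 1 of 27 (3.70%), against 7.71% of all genes. ACTATC, which overlaps it, was in 28.8% of bound and 11.1% of unbound genes, against 6.80% of all genes. CACACT, which can overlap the Motif 1 core, was in 28.8% and 11.1%, against 8.27%.

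The ratio of replicate 1 to replicates 2 and 3 was also taken by promoter letters, as a description. Among peaks nearest to the start of a ribosomal protein gene, the median ratio was 1.86 at 28 starts with CTTTT or CTTTC and 1.96 at 23 starts without. It was 1.91 at 16 starts with the DRE and 2.09 at 35 without. Among peaks at other genes' starts it was 0.936 at 110 with the TCT letters and 0.931 at 2316 without. The ratio was above 1.5 at 11.8% of other genes' starts with the TCT letters, against 8.89% of those without these letters. It was above 1.5 at 12.7% of other genes' starts with the DRE, and those without the DRE were not counted. Rack1, whose product sits on the small subunit, was one of the other genes with these letters, with a relative signal of 2.16, 1.07 and 1.01 and a ratio of 2.08.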
